A study of Homo sapiens with 12 samples.

Results

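The genes described here drive cells from the end of DNA replication through mitosis, and were measured in bladder cancer cells treated with CM272 or left untreated. The set was a fixed list of 55 human gene symbols in 9 roles, from the regulators of mitotic entry to the transcription factors of the programme, given by name and not by a threshold on any value. It was chosen with earlier results of these data known. A gene was measured where the array annotation gave a probe set exactly 1 symbol, which held for 54 of the 55, out of 22465 genes tested. BUB1B, a checkpoint kinase, had no such probe set and is not reported.

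RT112 and 5637 are established human bladder cancer lines, and CM272 is a small molecule that inhibits the histone methyltransferase G9a together with DNA methyltransferases. The groups used were 5637 with CM272, RT112 with CM272 and RT112 untreated, with 3 arrays each. The compound was given at the concentration called its IC50. The concentration itself and the time in the compound are not given in the sources used here. Total RNA was measured on Affymetrix whole-transcript arrays. The labels number the replicates without saying whether they were separate cultures, so a p-value here reflects only how much the arrays of a group vary, which may be technical. A lower transcript value cannot be told apart from a smaller share of cells in G2 or mitosis in RNA from a whole culture.

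Entry into mitosis is switched on when cyclin B and cyclin A activate CDK1, which WEE1 holds back by phosphorylation and the CDC25 phosphatases release. PLK1 and the Aurora kinases then build the spindle, kinetochores tie chromosomes to microtubules, and the spindle checkpoint holds anaphase until every kinetochore is attached. Transcripts of this programme are held down in resting cells by the DREAM complex and are raised before mitosis by MuvB with B-MYB and FOXM1. In many of these promoters the complexes act at a CHR element (TTTGAA or a close variant) near CCAAT boxes, which NF-Y binds.

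Many promoters of the members, though not all, held these letters. RefSeq windows of assembly GRCh38.p14, which run from 250 bases before to 50 bases after the gene start, were matched for 46 of the 54 measured members. Windows for WEE1, AURKA, TTK, BUB3, CENPH, BIRC5, TPX2 and FOXM1 were not used here. TTTGAA stood on either strand in 30 members (65.2%), against 12.5% of the 15247 array genes with a window. CCAAT stood on either strand in 34 members (73.9%), against 36.3% of array genes, and both motifs in 24 members (52.2%), against 5.1%. The GC box GGGCGG was found in 36 members (78.3%), against 57.4% of array genes. The E2F-type letters TTTCCCGC were found in 1 member (2.17%), against 2.12%. A match is a description of the letters in the window and not a binding site.

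Windows are printed for some of the members named in the RT112 comparison that carry both motifs. They are the pair with the lowest change (CENPF and KIF20B) and the pair with the highest (CDCA8 and TOP2A). Their opposite directions follow from this choice, and the positions of the letters differ. TTTGAA begins after the gene start in CENPF (base 41) and KIF20B (25 and 31). It begins before the start in CDCA8 (-23) and TOP2A (-194 and -151, the latter as TTCAAA). These printed windows do not stand for the other members, whose positions are given below with the motif counts by direction. Capitals mark TTTGAA and CCAAT, or their reverse complements TTCAAA and ATTGG, and each window is written 5′ to 3′ on the strand of its gene. The CENPF window is chr1:214602945-214603244 on the plus strand, and the KIF20B window is chr10:89701340-89701639 on the plus strand. The CDCA8 window is chr1:37692266-37692565 on the plus strand, and the TOP2A window is chr17:40417847-40418146 on the minus strand. In CDCA8 a TTTGAA and an inverted CCAAT overlap, and in KIF20B 2 TTTGAA copies lie end to end.
CENPF: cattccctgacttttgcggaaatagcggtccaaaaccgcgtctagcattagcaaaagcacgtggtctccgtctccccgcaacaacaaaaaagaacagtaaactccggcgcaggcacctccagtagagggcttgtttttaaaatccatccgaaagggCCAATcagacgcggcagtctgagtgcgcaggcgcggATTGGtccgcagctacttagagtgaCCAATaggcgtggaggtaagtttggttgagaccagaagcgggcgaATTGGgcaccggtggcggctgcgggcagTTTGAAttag
KIF20B: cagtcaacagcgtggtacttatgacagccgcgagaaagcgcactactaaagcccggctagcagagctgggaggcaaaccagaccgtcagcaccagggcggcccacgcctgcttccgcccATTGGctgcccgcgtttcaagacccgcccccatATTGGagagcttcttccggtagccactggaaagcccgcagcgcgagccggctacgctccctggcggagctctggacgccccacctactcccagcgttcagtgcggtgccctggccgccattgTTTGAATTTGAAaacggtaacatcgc
CDCA8: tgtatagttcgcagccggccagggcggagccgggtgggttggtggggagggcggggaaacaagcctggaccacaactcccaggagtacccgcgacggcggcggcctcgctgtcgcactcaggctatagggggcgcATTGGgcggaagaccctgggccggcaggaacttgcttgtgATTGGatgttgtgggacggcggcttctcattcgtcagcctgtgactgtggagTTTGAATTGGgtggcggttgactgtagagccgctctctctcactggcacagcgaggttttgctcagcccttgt
TOP2A: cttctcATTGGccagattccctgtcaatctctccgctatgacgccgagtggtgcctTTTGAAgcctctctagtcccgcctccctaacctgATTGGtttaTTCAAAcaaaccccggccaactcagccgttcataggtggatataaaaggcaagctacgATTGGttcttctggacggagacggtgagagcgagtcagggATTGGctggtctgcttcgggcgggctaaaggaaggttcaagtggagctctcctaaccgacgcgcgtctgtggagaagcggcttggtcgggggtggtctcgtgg

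Facts about the whole data set bear on every value below. The untreated 5637 arrays were left out, because their transcript-cluster values do not lie in the same lines of the table as those of the other arrays: their mean correlated with the treated 5637 mean at r = 0.0274, against 0.94 between treated and untreated RT112. The median of an array was 4.40 to 4.44 in treated RT112 and 5.05 to 5.10 in untreated RT112, so centring arrays on their medians added 0.65 to every RT112 log2 change. As deposited, 74.2% of all genes were called lower and 10.8% higher in treated RT112, and the median log2 change over all genes was -0.57. Centred, 28% were called lower and 39.8% higher, with a median of 0.08. A gene was called where its Benjamini-Hochberg adjusted p from limma over all genes was under 0.05. Below, "rose" and "fell" in RT112 are used for genes called in the same direction as deposited and centred, and the values given are as deposited unless said otherwise. Centring adds the same amount to every RT112 change. So the genes that rose are all those called higher as deposited, and the genes that fell all those called lower centred. All of these genes, members or not, were also called in that direction after quantile normalization, so that agreement is not separate support. The deposited log2 scale reached 19.93, so a log2 unit of this scale may not be a doubling. All 8 measured epithelial markers, such as keratins, lay above the median gene in all 3 groups, and 1 of 9 leukocyte markers did. Of 9 stromal and endothelial markers, 3 did so in treated 5637, 4 in treated RT112 and 1 in untreated RT112, with highest values of 7.25, 7.02 and 8.06.

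Treated RT112 replicate 1 stood apart from replicates 2 and 3 in part of the set. In it 6 members (11.1%) lay more than 0.5 above the mean of the other replicates, against 1.46% of all genes. CENPE was 1.85 above them, ASPM 1.45, CENPF 1.27, KIF20B 1.23, KIF18A 0.79 and KIF14 0.62. Of the 40 genes with the highest such deviation on this array, 4 were members. The highest was MIR2054, a microRNA gene, with 2.34, and other microRNA genes were among them. So were ATRX (1.22), DST (1.22), TPR (1.12) and GOLGB1 (1.01), which are neither members nor microRNA genes. No member lay more than 0.5 below the other replicates on this array. Its part in the results was not tested, and the values most affected are given with and without it.

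**Figure D1:**
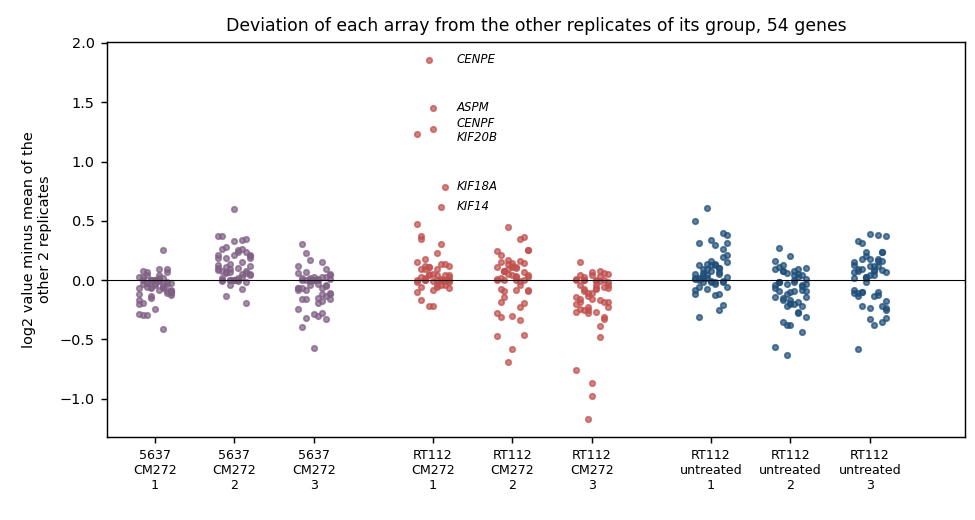
Each point is 1 of the 54 measured genes, plotted as its log2 value on an array minus the mean of the other replicates of that group (vertical axis, log2 units) for the 9 arrays used (horizontal axis). Treated RT112 replicate 1 holds 6 named genes more than 0.5 above the other replicates, up to 1.85 for CENPE.

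CM272 against no treatment in RT112 asks how the mitotic programme of this line differs in the presence of the compound. The programme did not move as a block. In treated RT112, 17 of the 54 measured members rose and 8 fell in both the deposited and the centred values, against 10.8% and 28% of all genes. The genes that rose included the CDK1 activator CDC25C, the chromosomal passenger CDCA8 and the transcription factor FOXM1, and most of the mitotic kinases. The genes that fell were cyclin A (CCNA2), the centriole kinase PLK4, 4 kinetochore or centromere genes (CENPF, CENPK, NUF2 and SPC25) and the motors KIF11 and KIF20B.

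As deposited, 17 members were called higher, 22 lower and 15 neither, with a median log2 change of -0.06 and a range from -2.05 to 1.52. Centred, 36 were called higher, 8 lower and 10 neither, with a median of 0.58. After quantile normalization 27 were called higher and 13 lower, against 32.6% and 35.5% of all genes. The groups did not overlap as deposited in 16 members with treated RT112 higher and 21 with it lower, against 11.1% and 74.3% of all genes, and centred in 36 with it higher and 8 with it lower, against 41.9% and 29.7%. Brighter genes shifted less, with a median deposited change of -0.65 for genes at levels of 4 to 6 and -0.25 at 10 to 12, and every member lay above the median gene in all 3 groups. Among the 9929 genes above that median in all 3 groups, 17.5% were called higher and 24.5% lower in both scalings, against 31.5% and 14.8% of members. As deposited 64.5% of those genes were called lower, and centred 48.1% higher.

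**Figure D2:**
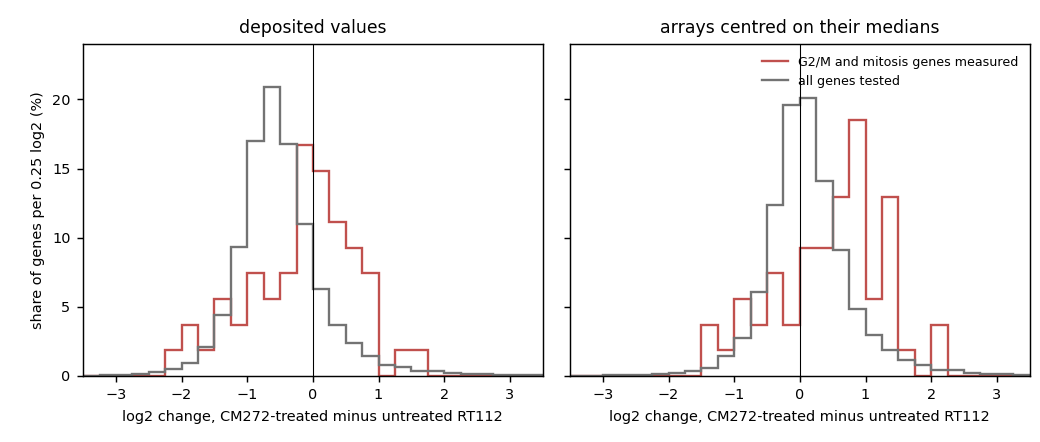
The horizontal axes give the log2 change of treated minus untreated RT112, as deposited (left) and with arrays centred on their medians (right), and the vertical axes the percent of the 54 members (red) or of all 22465 genes tested (grey) in steps of 0.25. The members are centred near -0.06 on the left and 0.58 on the right, against -0.57 and 0.08 for all genes, with a tail of members at the low end in both panels.

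**Figure D3:**
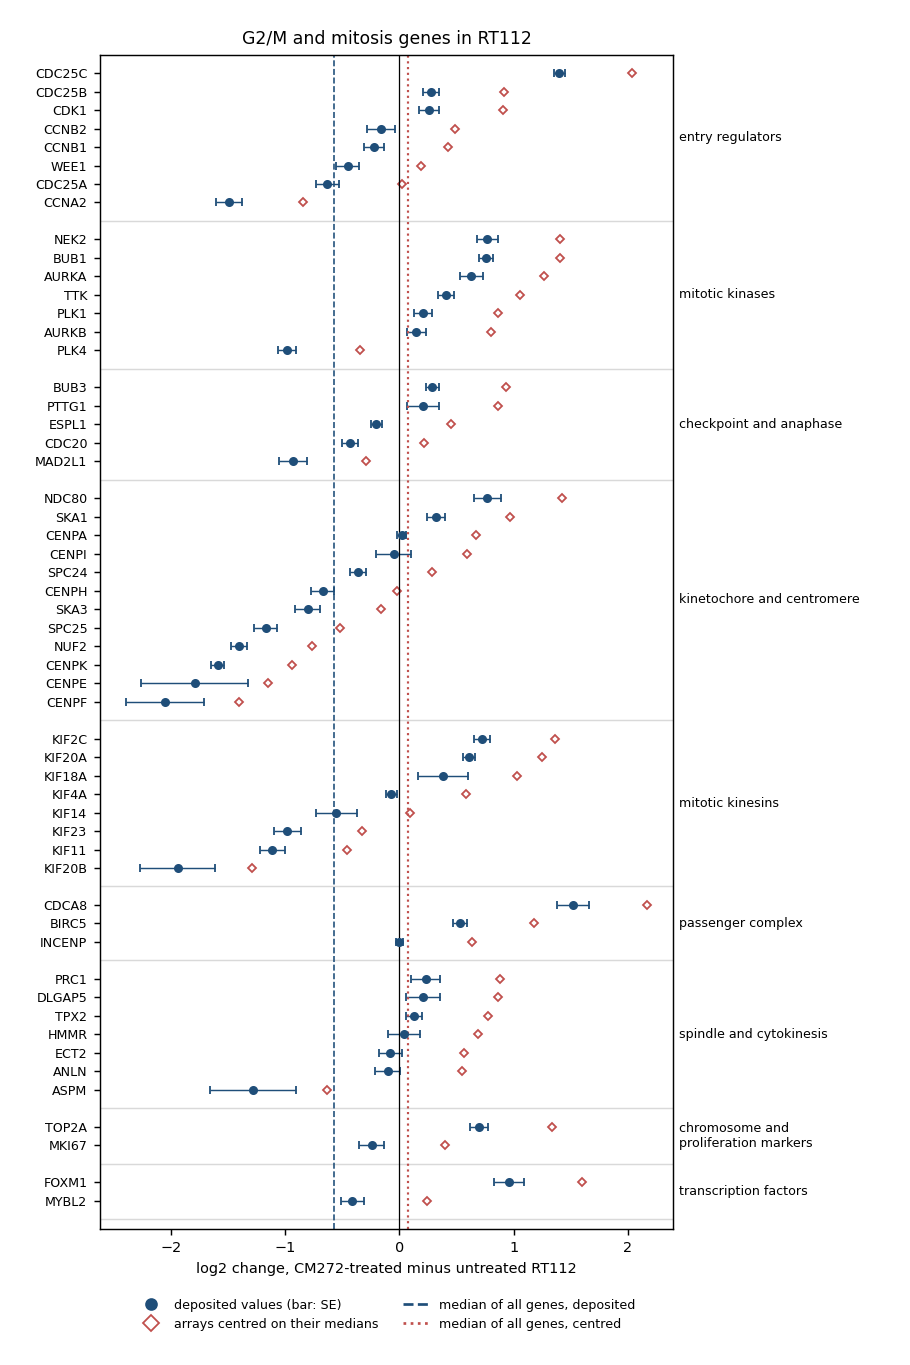
Each line is a measured member, grouped by role, with the log2 change of treated minus untreated RT112 on the horizontal axis (filled points, deposited with SE; open points, centred; vertical lines, medians of all genes). The mitotic kinases lie mostly to the right, and CENPF, KIF20B and CENPE lie furthest to the left.

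Among the 8 entry regulators, 3 rose, 1 fell and 4 were not called alike in both scalings. CDC25C, the phosphatase that activates CDK1 at mitotic entry, read 7.91, 7.90 and 7.90 in treated RT112, against 6.57, 6.52 and 6.42 in untreated RT112. The groups lay far apart, a log2 change of 1.40 ± 0.05 (SE, n = 3 each; adjusted p = 6.53e-08, limma). Its relative CDC25B, which starts CDK1 activation at the centrosome, read 8.66, 8.54 and 8.59 in treated cells, against 8.41, 8.32 and 8.23 in untreated cells. All 3 treated arrays were above all 3 untreated ones, by 0.28 ± 0.07 (adjusted p = 0.0057). CDK1 itself read 10.32, 10.29 and 10.04 in treated cells, against 9.88, 9.93 and 10.06 in untreated cells. Here the lowest treated array lay just under the highest untreated one, and the call of 0.26 ± 0.09 (adjusted p = 0.0249) was lost without treated replicate 1 or 2 or untreated replicate 1 or 2, where the change was 0.21 to 0.25 and the adjusted p 0.0704 to 0.0839.

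The cyclins parted. CCNA2, the A-type cyclin that works from S phase to early mitosis, read 12.74, 12.78 and 12.52 in treated RT112, against 14.17, 14.11 and 14.23 in untreated RT112. Every treated array was more than 1 unit lower, a change of -1.49 ± 0.11 as deposited (adjusted p = 2.52e-06) and -0.84 centred. CCNB1, the main mitotic cyclin, read 13.32, 13.37 and 13.27 in treated cells, against 13.58, 13.44 and 13.60 in untreated cells. It was called lower as deposited at -0.22 ± 0.09 (adjusted p = 0.0463) and higher once centred at 0.43 (adjusted p = 0.00493), so its direction depends on the scaling. The deposited call was lost in 6 of the 9 fits that left out an array, with changes of -0.24 to -0.19. The gap between the changes of CCNB1 and CCNA2 was 1.27, and a shift of whole arrays leaves such a gap as it is. CCNB2, the other B-type cyclin listed, changed by -0.16 as deposited, where it was not called unless treated replicate 2 was left out (-0.31), and by 0.49 centred, where it was.

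CDC25A, the phosphatase that also serves S-phase entry, read 6.20, 6.44 and 6.39 in treated RT112, against 7.05, 7.10 and 6.75 in untreated RT112. As deposited it was called lower at -0.63 (adjusted p = 0.000335), and its centred change was 0.02 (adjusted p = 0.859). WEE1, the kinase that restrains CDK1, changed by -0.45 as deposited (adjusted p = 0.00283) and 0.19 centred (adjusted p = 0.152). The changes of CDC25C and WEE1, which act on CDK1 in opposite ways, lay 1.85 apart on any scaling that shifts whole arrays.

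Of the 7 mitotic kinases measured, 5 rose, 1 fell and AURKB was not called alike in both scalings. NEK2, a kinase of centrosome separation, read 8.16, 8.18 and 7.92 in treated RT112, against 7.33, 7.17 and 7.45 in untreated RT112. BUB1, the kinase that recruits the checkpoint to kinetochores, read 10.35, 10.34 and 10.27 in treated cells, against 9.64, 9.42 and 9.61 in untreated cells. Neither gene's groups overlapped, and the changes were 0.77 ± 0.09 for NEK2 (adjusted p = 5.09e-05) and 0.76 ± 0.06 for BUB1 (adjusted p = 3.61e-06). AURKA, the centrosomal Aurora kinase, read 10.23, 9.79 and 9.97 in treated cells, against 9.46, 9.36 and 9.30 in untreated cells, again without overlap, a change of 0.63 ± 0.10 (adjusted p = 0.000424). TTK, the kinase that starts the spindle checkpoint, rose by 0.41 (adjusted p = 0.000512).

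PLK1, which drives entry, spindle assembly and cytokinesis, showed the smallest of the kinase changes that were called. It read 11.59, 11.62 and 11.56 in treated RT112, against 11.48, 11.45 and 11.21 in untreated RT112. The groups did not overlap, but the change of 0.21 ± 0.08 (adjusted p = 0.0407) was lost without any 1 of the treated RT112 arrays (0.20 to 0.22), without untreated replicate 3 (0.13) or without treated 5637 replicate 1 (0.21). AURKB, the kinase of the passenger complex, read 11.29, 11.12 and 11.23 in treated cells, against 11.05, 10.95 and 11.18 in untreated cells. These groups overlapped as deposited at 0.15 (adjusted p = 0.115; 0.21 and called without untreated replicate 3), and the centred change of 0.80 was called (adjusted p = 6.75e-05). PLK4, the kinase that starts centriole duplication, ran the other way, with 7.49, 7.72 and 7.46 in treated cells, against 8.48, 8.64 and 8.48 in untreated cells. All treated arrays were lower, by -0.98 ± 0.08 as deposited (adjusted p = 5.93e-06) and -0.34 centred (adjusted p = 0.00755). The changes of AURKA and PLK4 lay 1.61 apart.

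Among the 5 checkpoint and anaphase genes, BUB3 rose and the other 4 depended on the scaling. BUB3, the partner of BUB1 at the kinetochore, read 10.26, 10.26 and 10.34 in treated RT112, against 10.05, 9.88 and 10.08 in untreated RT112, without overlap. The change was 0.29 ± 0.06 (adjusted p = 0.00168). MAD2L1, the checkpoint protein that blocks CDC20, read 8.69, 8.76 and 8.54 in treated cells, against 9.72, 9.30 and 9.75 in untreated cells. The deposited call was lower at -0.93 ± 0.12 (adjusted p = 0.000122), and its centred change of -0.29 missed the threshold (adjusted p = 0.0866).

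CDC20, the activator of the anaphase-promoting complex, read 7.10, 7.03 and 7.12 in treated RT112, against 7.65, 7.49 and 7.39 in untreated RT112. The deposited call was lower at -0.43 (adjusted p = 0.000427) and the centred one higher at 0.22 (adjusted p = 0.0253). PTTG1, or securin, which holds separase inactive, read 7.31, 7.24 and 7.32 in treated cells, against 7.29, 7.26 and 6.69 in untreated cells. The arrays overlapped as deposited, where 0.21 was not called (adjusted p = 0.198; 0.01 without untreated replicate 3), and centred the change of 0.86 was called (adjusted p = 0.00056). ESPL1, separase itself, was called lower as deposited at -0.20 and higher centred at 0.45.

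The 12 kinetochore and centromere genes split, with 2 that rose (NDC80 and SKA1), 4 that fell (CENPF, CENPK, NUF2 and SPC25) and 6 that were not called alike in both scalings. The 4 subunits of the NDC80 complex, the rod that binds microtubules at the outer kinetochore, went different ways. The rule for listing values by array covers NDC80, and the other 3 subunits were added after their values were seen. NDC80 read 9.64, 9.85 and 9.56 in treated RT112, against 9.16, 8.81 and 8.75 in untreated RT112. NUF2 read 7.84 on all 3 treated arrays, against 9.26, 9.31 and 9.18 on the untreated ones. SPC25 read 8.57, 8.61 and 8.50 in treated cells, against 9.75, 9.49 and 9.93 in untreated cells.

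No array of one group overlapped the other in any of these 3 subunits. NDC80 rose by 0.77 ± 0.12 (adjusted p = 0.000366), NUF2 fell with a change of -1.40 ± 0.07 (adjusted p = 4.2e-07) and SPC25 with -1.17 ± 0.10 (adjusted p = 9.5e-06). SPC24, the partner of SPC25, read 6.19, 6.31 and 6.40 in treated RT112, against 6.67, 6.73 and 6.57 in untreated RT112. It was called lower as deposited at -0.36 (adjusted p = 0.00153) and higher centred at 0.29 (adjusted p = 0.00542). Within the arrays, the change of NDC80 exceeded that of NUF2 by 2.17, that of SPC25 by 1.94 and that of SPC24 by 1.13. Such gaps show unequal change and do not say which subunit stayed level.

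CENPF, a large protein of the outer kinetochore and nuclear matrix, read 8.51, 7.46 and 7.01 in treated RT112, against 9.70, 9.46 and 9.97 in untreated RT112. All treated arrays were lower, with replicate 1 nearest to the untreated ones, and the change was -2.05 ± 0.34 as deposited (adjusted p = 0.0005) and -1.40 centred. Without that replicate the changes were -2.47 and -1.82. CENPE, a kinesin of the kinetochore that carries chromosomes to the spindle equator, read 7.99, 6.29 and 5.97 in treated cells, against 8.95, 8.12 and 8.56 in untreated cells. It was called lower as deposited at -1.79 ± 0.47 (adjusted p = 0.00683) but not centred, at -1.15 (adjusted p = 0.0565). Without replicate 1 the centred change was -1.76 and was called (adjusted p = 0.000375).

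SKA1, a subunit of the complex that tracks microtubule ends at the kinetochore, read 8.50, 8.54 and 8.24 in treated RT112, against 8.05, 8.14 and 8.11 in untreated RT112. The groups did not overlap, at 0.32 ± 0.08 (adjusted p = 0.00642). SKA3, from the same complex, was called lower as deposited at -0.80 (adjusted p = 0.000145) and not called centred at -0.16 (adjusted p = 0.264). CENPK, a subunit of the inner kinetochore network, changed by -1.59 ± 0.06 as deposited (adjusted p = 1.2e-07) and -0.94 centred. Its value was 9.36 on each treated array, and 10.80, 10.97 and 11.05 on the untreated arrays. CENPH and CENPI, from the same network, changed by -0.67 and -0.05 as deposited and by -0.02 and 0.59 centred. CENPA, the histone variant that marks centromeres, changed by 0.02 as deposited and 0.67 centred, where it was called.

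Exact repeats of a value are a property of the treated arrays. CENPA, CENPK and NUF2 had 1 value on all 3 treated RT112 arrays (5.56% of members, against 12.1% of all genes), and no gene did so in untreated RT112. In treated 5637, 7 members had 1 value on all 3 arrays (13%, against 15.3% of all genes). They were CDC25A, AURKA, TTK, CENPE, KIF4A, BIRC5 and INCENP. An SD of 0 in such a group is not a measured spread. The fit pools the spread of all 3 groups, so such a group can make the SE and the adjusted p too small. Leaving out every gene with equal replicates in a group gave 14 members called higher and 18 lower as deposited. In 11 members a treated RT112 array and a treated 5637 array held exactly the same value (20.4%, against 37.7% of all genes), and no member shared a value between treated and untreated RT112.

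**Figure D4:**
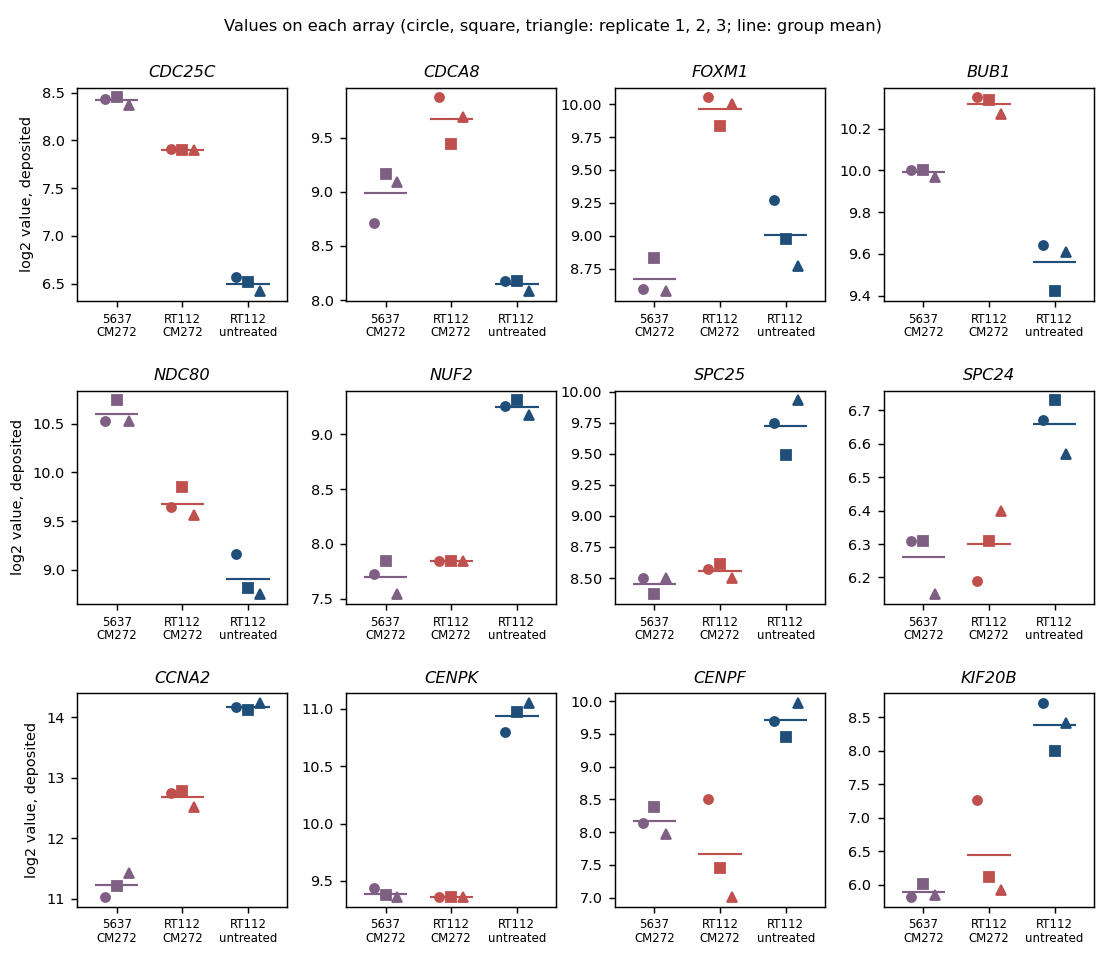
Each panel gives the deposited log2 value (vertical axis, a separate range in each panel that does not start at 0) of 1 gene on every array of treated 5637, treated RT112 and untreated RT112, with the group mean as a line. In the middle line of panels NDC80 is higher in treated than in untreated RT112 while NUF2, SPC25 and SPC24 are lower, and in CENPF and KIF20B treated replicate 1 lies above replicates 2 and 3.

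The 8 mitotic kinesins, motors that shape the spindle and the midbody, gave 2 that rose, 2 that fell and 4 that were not called alike in both scalings. KIF2C, which depolymerises microtubules at the centromere, read 8.08, 7.96 and 8.02 in treated RT112, against 7.36, 7.38 and 7.15 in untreated RT112. KIF20A, a motor of the central spindle, read 11.75, 11.61 and 11.66 in treated cells, against 11.08, 11.00 and 11.11 in untreated cells. Neither overlapped, with changes of 0.72 ± 0.07 (adjusted p = 1.67e-05) for KIF2C and 0.61 ± 0.05 (adjusted p = 7.62e-06) for KIF20A. KIF11, the motor that pushes the spindle poles apart, read 9.75, 9.62 and 9.42 in treated cells, against 10.68, 10.64 and 10.78 in untreated cells. All treated arrays were lower, at -1.11 ± 0.11 (adjusted p = 1.96e-05) as deposited and -0.46 (adjusted p = 0.00733) centred.

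KIF20B, a relative of KIF20A that acts in cytokinesis, went the opposite way from it. It read 7.26, 6.12 and 5.93 in treated RT112, against 8.71, 8.0 and 8.42 in untreated RT112. The groups were apart, and treated replicate 1 was again the nearest to the untreated arrays. The change was -1.94 ± 0.33 (adjusted p = 0.000561) as deposited and -1.29 (adjusted p = 0.00751) centred, and without replicate 1 it was -2.35 and -1.70. KIF23, a motor of the midzone, changed by -0.98 as deposited (adjusted p = 8.63e-05) and by -0.33 centred, which missed the threshold (adjusted p = 0.0515). KIF14, KIF18A and KIF4A changed by -0.55, 0.38 and -0.07 as deposited and by 0.09, 1.03 and 0.58 centred. The deposited call of KIF14 was lost without treated replicate 2 or 3 or untreated replicate 1 or 3 (-0.52 to -0.42), and its changes without treated replicate 1 were -0.76 as deposited and -0.11 centred. KIF18A changed by 0.12 as deposited and 0.77 centred without that array.

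In the chromosomal passenger complex, which moves from centromeres to the central spindle with AURKB, 2 of 3 listed subunits rose. CDCA8, or borealin, read 9.87, 9.44 and 9.69 in treated RT112, against 8.18, 8.18 and 8.08 in untreated RT112. The 1.52 ± 0.14 change (adjusted p = 9.8e-06) was the highest of all measured members as deposited. BIRC5, or survivin, read 8.39, 8.47 and 8.47 in treated cells, against 7.96, 7.78 and 7.99 in untreated cells, at 0.53 ± 0.06 (adjusted p = 3.92e-05). INCENP, the scaffold, read 8.40 on each treated array to this precision, against 8.39, 8.39 and 8.43 on untreated arrays. Its deposited difference had an adjusted p of 0.937 with an SE of 0.03, and its centred change of 0.64 was called (adjusted p = 2.72e-06).

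Of the 7 spindle and cytokinesis genes none was called alike in both scalings, although 6 were called higher once centred. PRC1, which bundles midzone microtubules, read 10.52, 10.70 and 10.38 in treated RT112, against 10.26, 10.09 and 10.55 in untreated RT112. DLGAP5, a spindle-stabilising protein, read 11.09, 10.59 and 10.64 in treated cells, against 10.57, 10.47 and 10.65 in untreated cells. The arrays of both genes overlapped, and the changes of 0.23 and 0.21 were not called (adjusted p = 0.12 and 0.224), although PRC1 was without untreated replicate 3 (0.36). Without treated replicate 1 the change of DLGAP5 was 0.05. ANLN, which anchors the contractile ring, also overlapped, with 13.14, 13.07 and 12.85 in treated cells, against 13.13, 13.17 and 13.05 in untreated cells.

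ASPM, a large spindle-pole protein, was the exception in this role, with 10.60, 9.24 and 9.05 in treated RT112, against 10.91, 10.80 and 11.03 in untreated RT112. Replicate 1 lay close to the untreated arrays and the others well under them. The change was called as deposited at -1.28 ± 0.38 (adjusted p = 0.0125) and not centred at -0.63 (adjusted p = 0.167). Without replicate 1 it was -1.76 as deposited and -1.11 centred, and both were called (adjusted p = 0.00254 centred). TPX2, HMMR and ECT2 changed by 0.13, 0.04 and -0.08 as deposited and by 0.78, 0.69 and 0.57 centred. TPX2 was called higher without untreated replicate 3 (0.21) and ECT2 lower without untreated replicate 2 (-0.21), both as deposited. Without treated replicate 1, 15 members rose and 10 fell in both scalings: CDK1 and PLK1 left the first count, and CENPE and ASPM joined the second.

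As deposited, neither the proliferation markers nor the transcription factors went together. Centred, both proliferation markers were called higher, TOP2A at 1.34 and MKI67 at 0.40. TOP2A, the topoisomerase that untangles chromosomes, read 13.11, 13.21 and 13.09 in treated RT112, against 12.36, 12.47 and 12.50 in untreated RT112, without overlap, at 0.70 ± 0.08 (adjusted p = 3.29e-05). MKI67, which encodes the Ki-67 antigen, read 11.61, 11.72 and 11.50 in treated cells, against 11.78, 11.68 and 12.11 in untreated cells. Its groups overlapped, and the change was -0.24 as deposited (adjusted p = 0.0705; -0.33 and called without untreated replicate 2) and 0.40 centred (adjusted p = 0.0184). FOXM1, an activator of the late programme, read 10.05, 9.83 and 10.00 in treated cells, against 9.27, 8.98 and 8.77 in untreated cells. All treated arrays were higher, by 0.96 ± 0.13 (adjusted p = 0.000131). MYBL2, which encodes B-MYB, read 9.13, 9.12 and 9.06 in treated cells, against 9.72, 9.52 and 9.30 in untreated cells. As deposited it was called lower at -0.41 (adjusted p = 0.00438) and not called centred at 0.24 (adjusted p = 0.0663).

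Both motifs were found among members of either direction. Both TTTGAA and CCAAT stood in 4 of the 12 members that rose and had a window, in 4 of the 8 that fell and in 16 of the other 26. TTTGAA, with or without CCAAT, stood in 6 of 12 that rose, 6 of 8 that fell and 18 of 26 others. CDC25C, CCNA2, CCNB1 and CENPE were among the members with no TTTGAA in the window, which says only that these exact letters are not in it. CENPF and KIF20B, which fell, and CDCA8 and TOP2A, which rose, are the windows printed above. Of the other members that fell, TTTGAA began before the gene start in KIF11 (-28) and SPC25 (-247 and -3). It began after the start in NUF2 (17) and PLK4 (39). Of the others that rose, it began after the start in SKA1 (35) and before it in CDK1 (-161), NDC80 (-3) and PLK1 (-29). Position against direction was not tested.

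Other genes of mitosis also moved in both directions in RT112, and their counts are read against 10.8% of all genes that rose and 28% that fell. Of 11 further entry regulators, 6 rose and 0 fell in both scalings, while as deposited 6 were called higher and 4 lower. This list was not split into activators and inhibitors of entry. CKS2, a CDK1-binding subunit, averaged 15.20 in treated RT112 and 11.88 in untreated RT112, a change of 3.31 ± 0.16 (SE, n = 3 each; adjusted p = 2.38e-07), more than that of any of the 54 members. Of 15 further kinetochore subunits, 6 rose and 0 fell. Among them SKA2, the remaining subunit of the complex of SKA1 and SKA3, averaged 10.28 in treated cells and 8.46 in untreated cells, at 1.82 ± 0.17 (adjusted p = 1.26e-05).

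Of 8 condensin subunits, which compact mitotic chromosomes, 2 rose and 1 fell, and NCAPD2 rose by 1.17 ± 0.04 (adjusted p = 1.03e-07). Of 11 cohesin subunits and regulators, which hold sister chromatids together, 1 rose and 3 fell (9.09% and 27.3%), shares close to those of all genes, with SMC3 at -1.47 ± 0.20 (adjusted p = 0.000128). Of 16 genes of the anaphase-promoting complex and its E2 enzymes, 2 rose and 5 fell (12.5% and 31.2%), also close to all genes, with UBE2S, the E2 enzyme that extends ubiquitin chains, at -1.31 ± 0.20 (adjusted p = 0.000253). Of 11 DREAM and MuvB subunits, 2 rose and 2 fell, and LIN37 rose by 1.45 ± 0.09 (adjusted p = 9.89e-07). Of 6 further mitotic kinesins, 0 rose and KIF15, which can stand in for KIF11, fell, with a change of -0.89 ± 0.07 (adjusted p = 6.21e-06). Of 3 NF-Y subunits none was called alike in both scalings. As deposited, the median changes of these lists ran from -0.64 (cohesin) to 0.14 (further entry regulators and further kinetochore subunits), against -0.57 for all genes.

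Treated 5637 against treated RT112 compares the levels of these genes in both lines under the compound, and uses the same treated RT112 arrays as the comparison above. It holds the difference between the lines as well as any difference in their response, which cannot be told apart without the untreated 5637 arrays. More members were lower in treated 5637 than higher. In both scalings 8 were called higher and 17 lower in 5637, against 17.1% and 13.7% of all genes, and the median log2 difference as deposited was -0.14, against -0.01 for all genes. WEE1, AURKB and NDC80 led the members that were higher, and CCNA2, PLK1, FOXM1, CDK1 and SKA3 those that were lower.

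As deposited, 8 members were called higher, 19 lower and 27 neither, against 17.1% and 15.8% of all genes. Among the 9929 genes above the median gene in all 3 groups, 26.4% were called higher and 24.6% lower in both scalings. Array medians differed little between the treated lines (4.37 to 4.40 in 5637 and 4.40 to 4.44 in RT112), and centred values gave 8 higher and 17 lower. The median level of the 54 members was 8.65 in treated 5637, 9.21 in treated RT112 and 9.31 in untreated RT112, and that of all genes 5.01, 4.97 and 5.53.

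**Figure D5:**
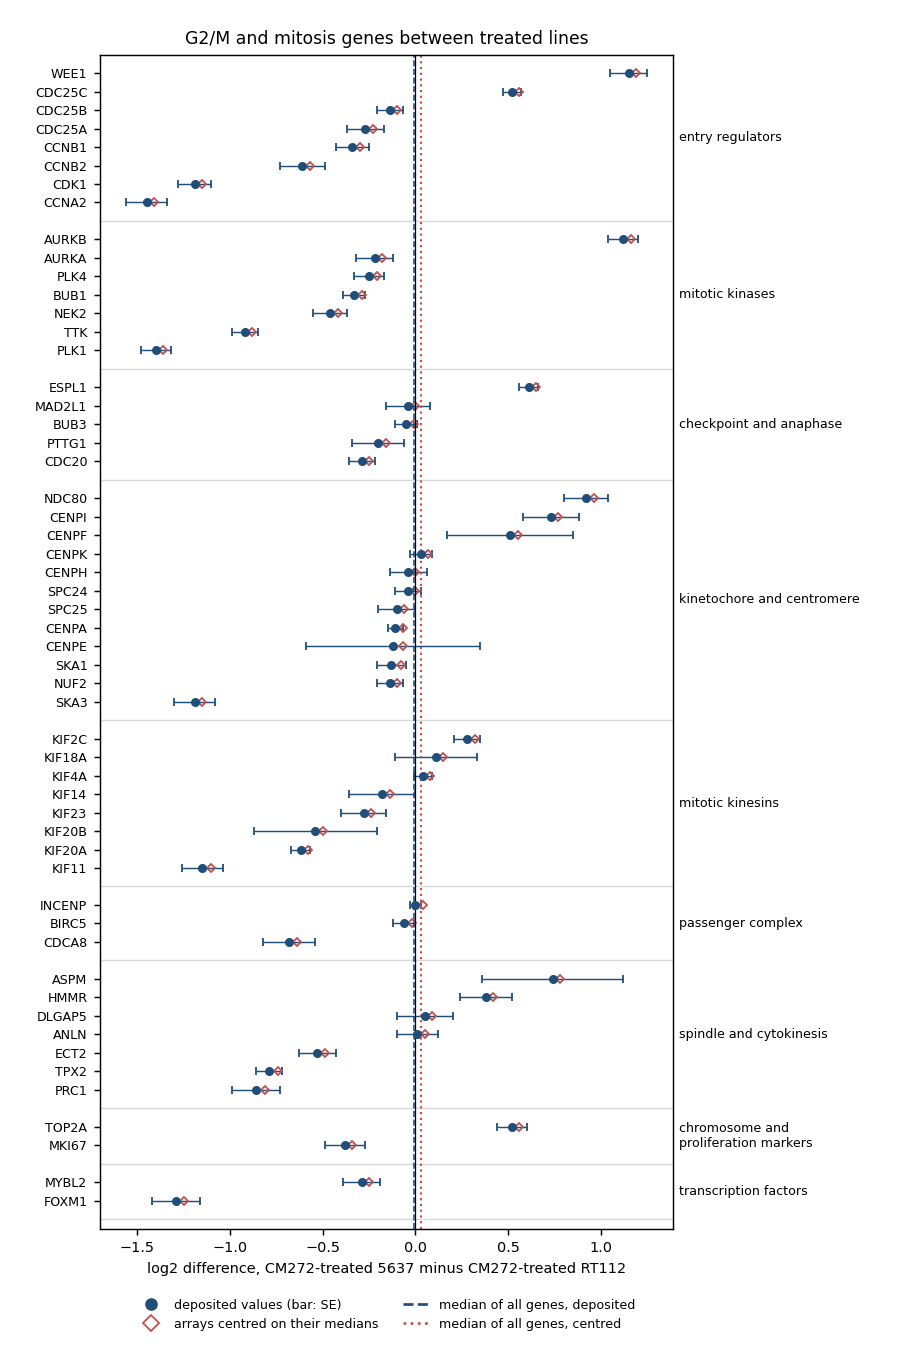
Each line is a measured member, grouped by role and sorted within it, with the log2 difference of treated 5637 minus treated RT112 on the horizontal axis (filled points, deposited with SE; open points, centred; vertical lines, medians of all genes). WEE1, AURKB and NDC80 lie near 1 on the right, and CCNA2, PLK1, FOXM1, CDK1 and SKA3 lie beyond -1 on the left, as does KIF11.

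The CDK1 switch differed between the treated lines in its parts. CCNA2 read 11.03, 11.22 and 11.43 in treated 5637, against 12.74, 12.78 and 12.52 in treated RT112. CDK1 read 8.89, 9.08 and 9.10 in treated 5637, against 10.32, 10.29 and 10.04 in treated RT112. All 5637 arrays were lower for both, with differences of -1.45 ± 0.11 (adjusted p = 1.48e-05) and -1.19 ± 0.09 (adjusted p = 1.83e-05). WEE1, the inhibitor of CDK1, was higher instead, with 8.43, 8.50 and 8.42 in treated 5637, against 7.27, 7.54 and 7.09 in treated RT112, a difference of 1.15 ± 0.10 (adjusted p = 3.96e-05). CDC25C was also higher in 5637, by 0.52 ± 0.05 (adjusted p = 4.53e-05), while CCNB1 and CCNB2 differed by -0.34 and -0.61 (adjusted p = 0.0171 and 0.00368). The deposited call of CCNB1 was lost after quantile normalization, at -0.17 (adjusted p = 0.198), and without treated RT112 replicate 2, at -0.32 (adjusted p = 0.0573). Its call in both scalings was less stable. That was lost without any 1 of the treated RT112 arrays, untreated RT112 replicate 1 or 3, or treated 5637 replicate 1 or 2.

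Of the 7 mitotic kinases, 1 was higher and 4 were lower in treated 5637 in both scalings. PLK1 read 10.13, 10.32 and 10.11 in treated 5637, against 11.59, 11.62 and 11.56 in treated RT112, more than 1 unit lower on every array, at -1.40 ± 0.08 (adjusted p = 4.22e-06). TTK and BUB1 were lower by -0.92 and -0.33, and NEK2 by -0.46. AURKB read 12.32, 12.46 and 12.23 in treated 5637, against 11.29, 11.12 and 11.23 in treated RT112, about as far apart in the other direction at 1.12 ± 0.08 (adjusted p = 1.35e-05). AURKA differed by -0.22, which was not called (adjusted p = 0.153) except without treated RT112 replicate 2, at -0.33 (adjusted p = 0.0232), and was -0.10 without replicate 1.

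Of the 12 kinetochore and centromere genes, 2 were higher and 1 was lower in treated 5637 in both scalings (16.7% and 8.33%), against 17.1% and 13.7% of all genes. NDC80 read 10.53, 10.74 and 10.53 in treated 5637, against 9.64, 9.85 and 9.56 in treated RT112, at 0.92 ± 0.12 (adjusted p = 0.000456). CENPI, of the inner kinetochore, read 9.29, 9.07 and 9.0 in treated 5637, against 8.48, 8.62 and 8.07 in treated RT112, also without overlap, at 0.73 ± 0.15 (adjusted p = 0.00515). SKA3 read 7.97, 8.27 and 8.15 in treated 5637, against 9.32, 9.40 and 9.25 in treated RT112, at -1.19 ± 0.11 (adjusted p = 5.25e-05). The other NDC80 subunits NUF2, SPC24 and SPC25 differed by -0.14, -0.04 and -0.10, with SEs of 0.07, 0.07 and 0.10, and were not called. Each of these 3 had a value shared exactly by an array of both treated lines, and NUF2 was called without treated 5637 replicate 2 (-0.21, adjusted p = 0.0467, limma).

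FOXM1 read 8.60, 8.83 and 8.58 in treated 5637, against 10.05, 9.83 and 10.00 in treated RT112, at -1.29 ± 0.13 (adjusted p = 8.34e-05). MYBL2 differed by -0.29, which was not called as deposited (adjusted p = 0.0559) but was without untreated RT112 replicate 1 or 3 (adjusted p = 0.0174 and 0.0125). TOP2A was higher in treated 5637 by 0.52 ± 0.08 (adjusted p = 0.000752). KIF11 and KIF20A were lower, by -1.15 and -0.62, and KIF2C was higher by 0.28, a call lost without replicate 2 of either line (0.25). ASPM read 10.35, 10.77 and 9.99 in treated 5637, against 10.60, 9.24 and 9.05 in treated RT112. These arrays overlapped and 0.74 ± 0.38 was not called (adjusted p = 0.203), but without treated RT112 replicate 1 ASPM (1.22), CENPF (0.93), HMMR (0.50) and CDC25A (-0.35) were called in both scalings, and CCNB1 and CDC20 no longer were. KIF20B differed by -0.54 with that array and -0.13 without it, and was called in neither case. That setting gave 11 members higher and 16 lower in treated 5637 in both scalings. CDC20 also left that lower count without treated RT112 replicate 2 or 3, or without treated 5637 replicate 1 or 3.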

How the data were processed

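The 54 measured members were read from 1 deposited table of log2 values with 70523 lines and 12 arrays. Per the submitters' processing notes the authors made these log2 values with RMA in Affymetrix Expression Console. Their versions and the genome build are not given in the sources used here. GEO's platform annotation gave 1 symbol to 23781 lines, several to 1543 and none to 45199. The brightest line was kept for the 479 genes with more than 1, none of them a member, which left 22465 genes.

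Group means of 9 arrays were fitted with limma 3.58.1 (lmFit and eBayes, 6 residual degrees of freedom) in R 4.3.3, with Benjamini-Hochberg adjustment over all genes and a threshold of 0.05. The 3 untreated 5637 arrays were left out. The fit was tested on simulated data without a shift of whole arrays or repeated values, so that test does not cover these features. Each fit was repeated with arrays centred on their medians and after quantile normalization, and other alternatives are given in the closing section. Values by array were listed for the 2 highest and 2 lowest RT112 changes per role (all members of roles with fewer than 5), plus CDK1, CCNB1, PLK1, AURKA and KIF11, and for the 5 highest and 5 lowest differences between treated lines. Of other lists, at most the member with the largest change called alike in both scalings was named. Precision is limited by 3 arrays per group. The members and lists were chosen with earlier results of these data known. Sequences are from RefSeq, assembly GRCh38.p14, with letters matched in Python 3.11.15.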

Additional observations from a re-analysis of the deposited data

How the results depend on the processing

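The RT112 counts depended on the scaling. As deposited 17 members were called higher and 22 lower, against 36 and 8 centred and 27 and 13 after quantile normalization, since centring adds 0.65 to each change. Centred and without treated RT112 replicate 1, a setting chosen after seeing the data, they were 35 and 10. The change turned positive in 15 members when centred: CCNB1 (0.43), CCNB2 (0.49), CDC25A (0.02), WEE1 (0.19), CDC20 (0.22), ESPL1 (0.45), CENPI (0.59), SPC24 (0.29), KIF14 (0.09), KIF4A (0.58), INCENP (0.64), ANLN (0.55), ECT2 (0.57), MKI67 (0.40) and MYBL2 (0.24). Quantile normalization turned 6 of them: CDC20 (0.01), ESPL1 (0.21), CENPI (0.30, called in neither), SPC24 (0.19), KIF4A (0.33) and INCENP (0.34). Leaving out each array in turn gave 15 to 19 members higher and 20 to 24 lower in RT112, and 7 to 11 higher and 16 to 22 lower between treated lines. Fitting only the groups compared, leaving out dim genes or genes with equal replicates, limma's trend and the mean over a gene's lines kept all 4 counts within 1.5 times. No member was dim or had more than 1 line. Leaving out dim genes and averaging lines therefore could not alter a member's change, only the spread and adjustment shared by all genes. Leaving out genes with equal replicates kept 44 members, so its lower counts also reflect the members removed. With the replicate number as a block, the counts were 17 and 21 in RT112 and 8 and 18 between treated lines. The replicate numbers gave no sign of pairing, which does not settle how the samples were handled. Deviations of same-numbered treated and untreated RT112 arrays correlated at -0.059, -0.089 and -0.083, and those of the treated lines at 0.022, -0.064 and 0.039. Between the treated lines, differently numbered arrays ran from -0.122 to 0.11. Without the untreated 5637 arrays no response of 5637 to CM272 could be given, and effects of treatment cannot be told apart from a processing step that separated treated from untreated arrays.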
